A study of Mus musculus with 60 samples.

Results

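A group of soil, water and plant associated bacteria was followed through 16S rRNA libraries of mice given polyethylene terephthalate (PET) nanoplastics. Members were all features whose taxonomy line carried the family Burkholderiaceae, Sphingomonadaceae, Pseudomonadaceae, Oxalobacteraceae, Moraxellaceae or Rhizobiaceae, or the genus Leifsonia. A feature is 1 denoised sequence variant of the V3-V4 region of the 16S gene, with its count in each library. The rule took 140 of 8574 features, under 33 genus labels, and they held 134828 counts, or 0.790% of all prokaryote counts. The rule itself uses only taxonomy lines, but the members were chosen with earlier results of these data known.

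The libraries came from male mice, 12 in all with 6 in each arm. The PET arm received nanoplastics by gavage at 0.5 mg per day in 0.1 ml for 28 days, and the control arm was not exposed. Each arm gave 6 libraries of stool at week 1, and at day 28 gave 6 each of stool, colon tissue, lung tissue and oral swab, which makes 60 libraries in 10 groups. The sources used here give no strain or age. DNA of stool and swabs was extracted with a soil kit (PowerLyzer PowerSoil) and DNA of colon and lung with a tissue kit (Blood and Tissue), so kit and kind of site cannot be told apart between those pairs. Blank and water libraries were not analysed here.

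The labels do not say which libraries came from the same mouse, so libraries were taken as independent, and p-values measure the spread between the libraries of a group. Total counts ran from 16521 to 1083575 in stool, 59063 to 280575 in colon, 10543 to 326834 in lung and 119454 to 428830 in oral swab. In 4 libraries the identifiers followed a second series, set apart from the other 56: day 28 stool control 6 and PET 6, and lung control 5 and 6. Results that moved without those libraries are given with that value. The site labels fitted the known residents of each site for stool and mouth: gut families held a mean of 61.7% of week 1 stool and 66.8% of day 28 stool, and rodent mouth genera held 84.1% of oral swabs. Lung libraries held a mean of 43.2% of gut families and 5.96% of mouth genera. Colon libraries held a mean of 21.5% of gut families (0.887% to 49.0%) and 0.323% of mouth genera. Colon thus held less of the gut list than lung did.

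Burkholderia and its relatives Caballeronia and Paraburkholderia live in soil, water and plant roots, and Sphingomonas lives in water films and on surfaces. Leifsonia, an actinobacterium of plants and water, is the only member outside the Proteobacteria. Many of these genera are also known from DNA extraction kits, PCR reagents and laboratory water, where they are most visible when a sample holds little bacterial DNA of its own. The family rule also took in genera better known from animals: Moraxella of the airways and mouth, Bartonella of blood and Lautropia of the mouth.

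The members were few in kind and uneven in amount. A single feature of Burkholderia-Caballeronia-Paraburkholderia, called the Burkholderia group here, had 86669 counts and was found in 57 of the 60 libraries. The 1 Leifsonia feature had 17370 counts in 47 libraries, and the most abundant Sphingomonas feature had 9733 counts in 33. Those 3 features held 84.4% of all member counts. The 8 features seen in 10 or more libraries held 94.6%, while 72.1% of the member features were seen in 1 library only and held 2.37%. Among all prokaryote features 73.8% were seen in 1 library, so sparse features were about as common among the members as elsewhere. By family, Burkholderiaceae held 65.4% of member counts in 27 features, Sphingomonadaceae 17.9% in 24, Moraxellaceae 1.51% in 30, Pseudomonadaceae 1.48% in 37, Oxalobacteraceae 0.629% in 14 and Rhizobiaceae 0.186% in 7. Leifsonia held 12.9%. The classifier's confidence in the taxonomy line had a median of 0.998 over the 140 features, with a lowest value of 0.703.

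The share of prokaryote counts held by the members differed by orders of magnitude between sites. The summed share was 0.0835% ± 0.234 (SD, n = 12) in week 1 stool and 0.116% ± 0.373 in day 28 stool. It was 1.84% ± 1.60 in colon, 11.01% ± 10.2 in lung and 0.772% ± 0.711 in oral swab. The lung libraries ran from 0.913% to 29.7% with a median of 7.64%, the colon libraries from 0.185% to 5.15% with a median of 1.26%, and the oral swabs from 0.156% to 2.88% with a median of 0.619%. The stool medians were 0.0165% and 0.00813%, so 12 of 12 colon, lung and oral libraries at each site lay above the stool medians. These shares are a description of the libraries, and no test was made on the sum.

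**Figure D1:**
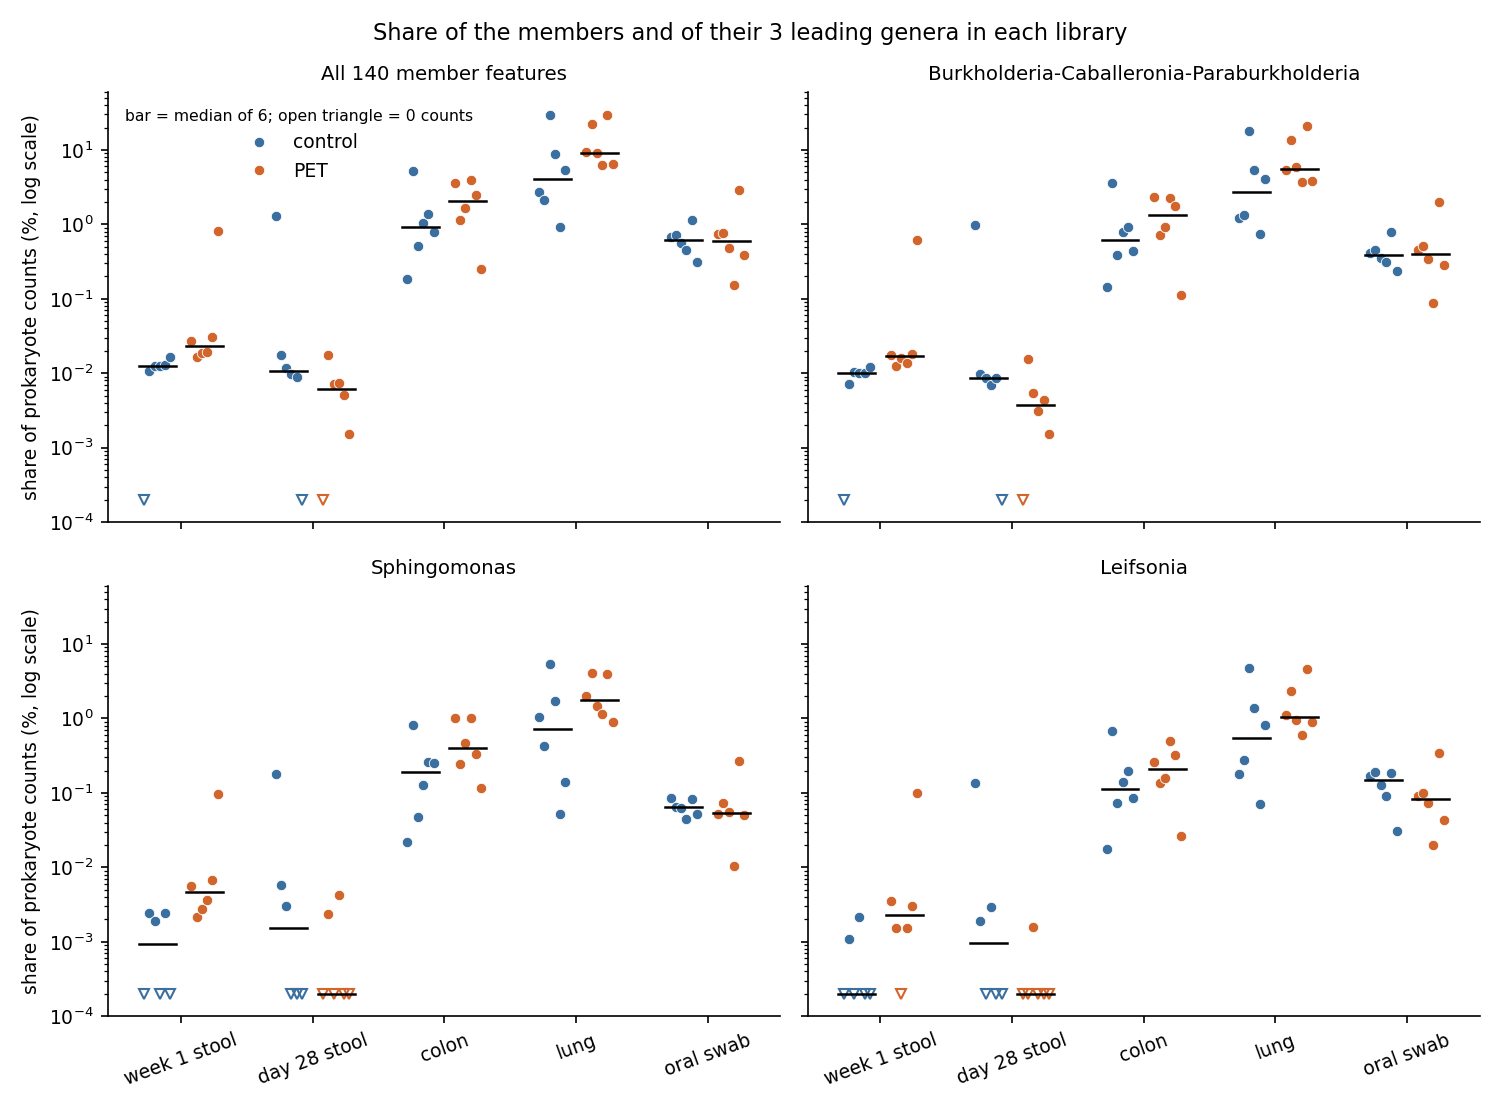
Share of prokaryote counts (percent, log scale) held by all 140 member features and by the 3 leading genera in each of the 60 libraries, by site and arm; each point is 1 library, the bar is the median of 6, and an open triangle is a library with 0 counts. Lung points lie highest, between 0.913% and 29.7% for all members, and 1 stool library at each time lies far above the other 11.

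In stool, 1 library at each time carried nearly all member counts. PET library 6 of week 1 had 8931 member counts among 1082777, a share of 0.825%, while the other 11 week 1 libraries had at most 170 counts and a mean of 0.0161% ± 0.00825. Control library 1 of day 28 had 7833 member counts among 602162, a share of 1.30%, while the other 11 had at most 82 counts and a mean of 0.00789% ± 0.00619. Each of these libraries was the deepest of its site and time, and they belong to opposite arms. They held 0.161 and 0.139 Leifsonia counts per count of the leading Burkholderia feature, beside medians of 0.190 in colon, 0.202 in lung and 0.223 in oral swab. Their Sphingomonas counts per count of that feature were 0.158 and 0.186, beside medians of 0.308, 0.297 and 0.142.

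No member count was found in 3 stool libraries. Week 1 control 1 had 16513 prokaryote counts, which allows a member share of up to 0.0182%, and day 28 control 6 and PET 1 allow up to 0.000925% and 0.00122% (the share that 3 counts would give). The Wilson 95% interval of the share was narrow where counts were high, from 0.808% to 0.842% in the high week 1 library. Intervals and limits cover counting error only, since PCR copies of 1 template are counted more than once.

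The number of kinds of member also differed by site. A lung library held a median of 16 member features (6 to 26), against 3 and 2 in week 1 and day 28 stool, 6 in colon and 7 in oral swab. Over all 12 libraries of a site, 97 member features and 24 genus labels were seen in lung, 48 and 23 in oral swab, 28 and 12 in colon, and 11 features in each set of stool libraries. The extra features in lung came with a smaller depth: the median prokaryote count was 54414 in lung against 130371 in colon, 339271 in oral swab and 446184 in day 28 stool.

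The Burkholderia group was the most abundant member at each site. Its mean share was 7.02% in lung, 1.199% in colon, 0.523% in oral swab, 0.0870% in day 28 stool and 0.0621% in week 1 stool. Sphingomonas came second in lung and colon, with 1.85% and 0.392%, and had 0.0751% in oral swab. Leifsonia had 1.497% in lung, 0.216% in colon and 0.123% in oral swab, where it stood above Sphingomonas. All of these 3 genera had counts in 12 of 12 libraries in colon, lung and oral swab.

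The other genera were patchy. Pseudomonas, metabolically versatile bacteria of water and moist surfaces, had counts in 11 of 12 lung libraries with a mean share of 0.307%, and in 5 oral, 1 colon and 3 stool libraries. Acinetobacter, found in soil and water and on skin, had a mean of 0.0989% in lung and was found in 11 lung, 5 colon and 5 oral libraries. Lautropia was seen in 6 lung libraries and had 9 features, each in a single library. Limnobacter, a freshwater genus that oxidises thiosulfate, was found in 6 oral swabs and 1 lung library. Duganella and Massilia, soil and water genera of the Oxalobacteraceae, were seen in 6 and 4 libraries in all. Moraxella was seen in 3 lung and 4 oral libraries. Ensifer, Blastomonas and Bartonella each had 1 feature, in 1 to 3 libraries.

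**Figure D2:**
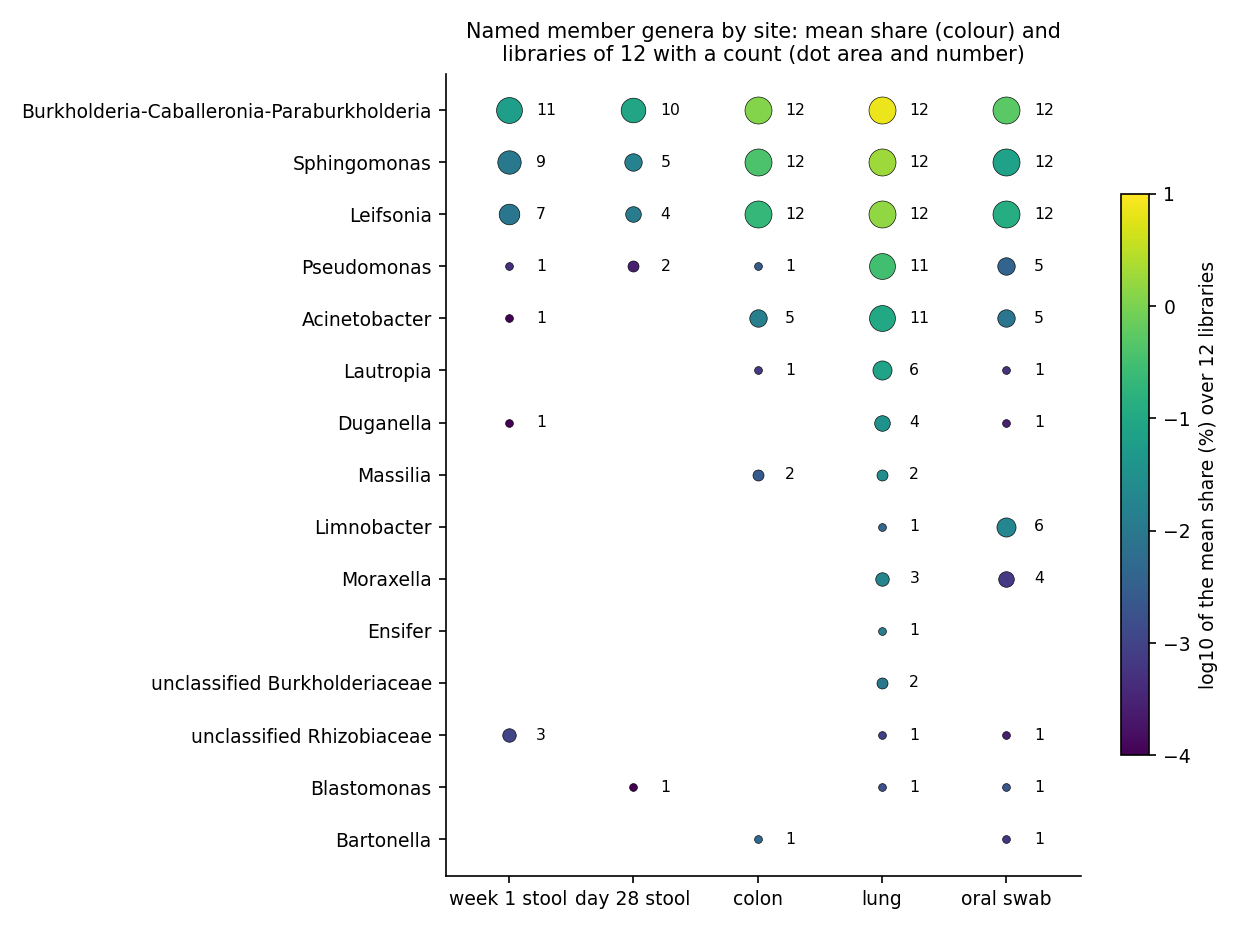
The 15 named member genera by site; colour is the log10 of the mean share in percent over 12 libraries, and dot area and the number beside it give how many of the 12 libraries had a count. The 3 leading genera fill 12 of 12 libraries in colon, lung and oral swab, and each of the other 12 was seen in at most 6 of 12 libraries at a site, apart from Pseudomonas and Acinetobacter with 11 in lung.

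The genera were then tested between sites at day 28, with edgeR's quasi-likelihood test on counts summed by genus, Benjamini-Hochberg adjustment over the 314 genera tested and a threshold of 0.05. Of the members, 15 genera passed the filter on low counts. In tissue (colon and lung) against stool and oral swab, 4 of the 15 were higher and 0 lower: Acinetobacter by 5.84 ± 1.05 (log2, SE), Sphingomonas by 4.99 ± 0.81, Leifsonia by 4.45 ± 0.81 and the Burkholderia group by 4.13 ± 0.68, the highest of the 4 adjusted p-values being 1.3e-05. This contrast averages stool and oral swab, and all 4 genera were higher in oral swab than in stool (below). The values are therefore not differences from oral swab alone. Acinetobacter had 0 counts in day 28 stool, so its value and SE have no stool mean behind them and give no size. Mean shares of the Burkholderia group were 1.199% in colon, 7.02% in lung, 0.523% in oral swab and 0.0870% in day 28 stool. The background was high: 19.7% of all genera tested were higher in tissue. The median log2 change was 2.46 over the member genera and 2.17 over all genera, so a shift of this size was common to the genera tested. Of the genera called, 62 were higher and 26 lower, against 63 and 15 on library totals and 52 and 36 with TMMwsp factors.

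In a fit with terms for site and arm, 8 of the 15 were higher in tissue (44.9% of all genera), with Lautropia at 4.89 and Massilia at 7.07 among those added. That fit was chosen after the data were seen, because a genus with no count in a group has no estimable mean in the fit with 8 groups. Massilia had 0 counts in stool and oral swab, so it could only come out higher in tissue and its value gives no size. Lautropia had 0 counts in stool and 25 counts in 1 oral swab, so its value gives no size either. Kit and kind of site cannot be told apart in either fit.

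Colon and lung were extracted with 1 kit, and there the leading genera depended on the scaling. The Burkholderia group was at -0.60 ± 0.85 in colon against lung (log2, SE; edgeR adjusted p = 0.644), Leifsonia at -0.78 ± 0.997 (0.592) and Sphingomonas at -0.54 ± 0.98 (0.757). With library totals in place of TMM factors the Burkholderia group was at -2.51 with an edgeR adjusted p of 0.00467, with TMMwsp factors at 0.08, not past the threshold, and with DESeq2 at 0.92 (adjusted p = 0.401). In edgeR alone, its direction and its call thus turned with the scaling. Without lung control 6 it was at 0.27. Of the 15 member genera, 3 were lower in colon, against a background of 39.5% of all genera: Lautropia by -7.76 ± 2.10 (edgeR adjusted p = 0.00267), Pseudomonas by -7.18 ± 1.83 (0.00180) and unclassified Oxalobacteraceae by -5.12 ± 1.74 (0.0136). The last had 15 counts in all, in 3 libraries, and 0 in colon, so it could only come out lower there. In colon Lautropia had 11 counts and Pseudomonas 32, each in 1 PET library, and neither had a count in colon control. The log2 values of both therefore have no colon control mean behind them and give no size. Pseudomonas kept its call under each alternative run, while Lautropia lost it with DESeq2 (adjusted p = 0.408) and unclassified Oxalobacteraceae with TMMwsp factors (0.0778) and with no filter (0.133). With terms for site and arm, 8 of the 15 were lower in colon, beside 41.7% of all genera. Of the genera called, 24 were higher in colon, and DESeq2 had 41 higher and 52 lower.

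Oral swab and stool also shared a kit. In oral swab 8 of 15 member genera were higher and 0 lower, against a background of 38.2% of all genera. They were Limnobacter by 8.72 (log2), Acinetobacter by 8.48, Leifsonia by 6.74, Moraxella by 5.89, the Burkholderia group by 5.62, Sphingomonas by 5.37, Pseudomonas by 4.96 and Novosphingobium by 4.46, the edgeR adjusted p of Pseudomonas (0.00409) being the highest. In day 28 stool Limnobacter, Acinetobacter, Moraxella and Novosphingobium had 0 counts, so they could only come out higher. Their log2 values have no stool mean behind them and give no size. The median was 4.46 over the members and 2.81 over all genera. Of the genera called, 120 were higher and 33 lower, against 110 and 62 on library totals. Moraxella and Novosphingobium lost the call with DESeq2 (adjusted p = 0.211 and 0.351). With terms for site and arm, 12 of the 15 were higher, beside 58.3% of all genera.

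The same contrasts were read for a list of other genera often reported from blanks and water, such as Bradyrhizobium, Afipia and Stenotrophomonas, of which 20 were present. Of the 12 that could be tested, 3 were higher in tissue, 4 were lower in colon than in lung and 7 were higher in oral swab than in stool, beside 19.7%, 39.5% and 38.2% of all genera. DESeq2 called 1, 0 and 3 of them, and without the second label series 2 were lower in colon. Some of the 12 had 0 counts at a site, such as Stenotrophomonas in day 28 stool and Chryseobacterium in colon. Their direction against that site was fixed beforehand. The summed share of the list had a mean of 0.295% in lung, 0.0508% in colon, 0.0237% in oral swab and at most 0.00276% in stool, the same order of sites as for the members. Skin genera such as Cutibacterium and Staphylococcus held 1.90% of lung, 0.171% of oral swab and 0.0705% of colon. The part of reagent DNA in any of these levels was not tested.

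In stool, day 28 was set against week 1 over both arms. None of 5 member genera passed the edgeR test (adjusted over 147 genera, of which 2.72% were called), 1 had an unadjusted p below 0.05, and DESeq2 called 0 of 2. Unclassified Rhizobiaceae, found in 3 week 1 libraries and 0 of day 28, came nearest with an edgeR adjusted p of 0.0673. It passed the filter on low counts only through week 1, so it could only come out lower at day 28. Without control library 1 of day 28, the high one, 2 member genera passed as lower at day 28: unclassified Rhizobiaceae at -5.17 (edgeR adjusted p = 0.0274) and the Burkholderia group at -2.49 (0.0453). Without the high library of each time, 0 member genera passed.

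Share was then set against library depth within each site. A relation between a share and the library total also holds the total in its denominator, and each correlation rests on 12 libraries. In stool the share of the Burkholderia group had a positive r with depth. At day 28 Pearson's r of the log2 values was 0.812 (permutation p adjusted over 16 relations = 0.0267) and Spearman's rho 0.685 (0.144), which did not pass. Without the 2 libraries farthest from the median depth r was 0.662 and rho 0.467. Those were PET 1 and control 6, both without a member count. The high library, control 1, stayed in, so that value does not show the relation without it. At week 1 r was 0.617 (permutation adjusted p = 0.199), and it was -0.03 without the 2 farthest libraries, so that value rested on them.

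In colon and lung the sign was the opposite. In colon r was -0.701 for the Burkholderia group (permutation adjusted p = 0.0572, rho -0.566 with 0.237) and -0.702 for Leifsonia (0.0572, rho -0.594 with 0.237), and -0.616 for Sphingomonas (0.105, rho -0.685 with 0.144). Within the colon arms r of the Burkholderia group was -0.391 in control and -0.882 in PET. In lung r was -0.614 for the Burkholderia group and -0.601 for Leifsonia (permutation adjusted p = 0.105 for both), and -0.175 for Sphingomonas. Within the lung arms r of the Burkholderia group was -0.670 in control and -0.215 in PET. None of the 16 relations passed by both r and rho, 1 passed by Pearson's r alone, and 0 by rho alone.

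In oral swab there was no common direction. For the Burkholderia group r was -0.392 and rho 0.014, with r of 0.816 within the control arm and -0.585 within the PET arm. The summed share, described without a test, had r with depth of 0.664 and 0.838 in the 2 sets of stool libraries, -0.698 in colon, -0.552 in lung and -0.420 in oral swab.

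**Figure D3:**
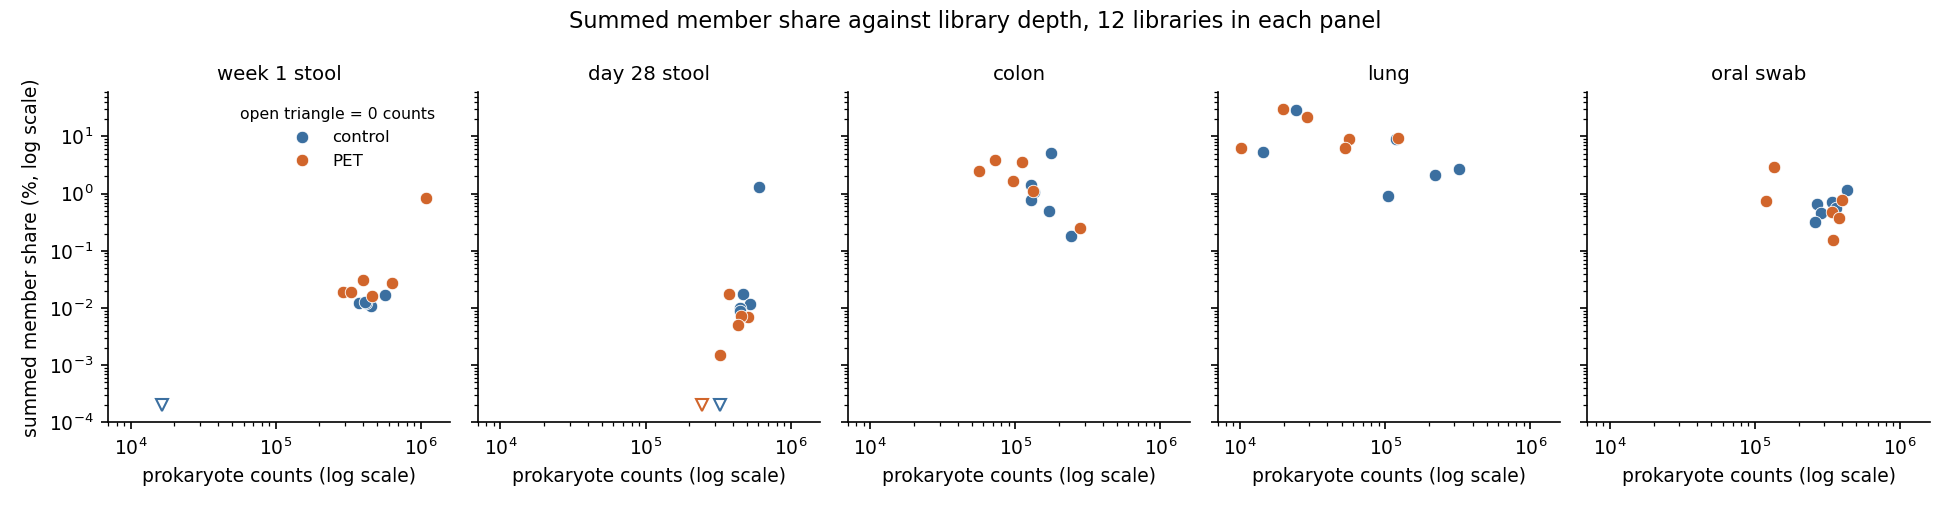
Summed member share (percent, log scale) against prokaryote counts of the library (log scale), 12 libraries in each panel, coloured by arm; an open triangle is a library with 0 member counts. Colon and lung points fall from left to right (r of -0.698 and -0.552), and in each stool panel the deepest library is also the highest.

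Outside stool the member counts of a site spanned a smaller range than the shares. A lung library had a median of 5511.5 member counts (644 to 11513), a colon library 1468 (447 to 9013) and an oral swab 1700 (532 to 4908), while stool medians were 58.5 and 38. Between member counts and library total, rho over 12 libraries was 0.552 in lung, 0.364 in oral swab and -0.427 in colon.

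The 3 leading genera moved together in colon, lung and oral swab. The Burkholderia group and Leifsonia belong to different phyla. For this pair r of the log2 shares was 0.980 in colon, 0.984 in lung and 0.887 in oral swab (permutation p adjusted over 24 pairs = 0.00012, 0.00012 and 0.0008), and rho was 0.972, 0.965 and 0.874 (0.00012, 0.00012 and 0.0014). For the first pair of sites 1e-05 was the smallest raw p that 100000 permutations can give. Without the 2 libraries farthest from the median r was still 0.971, 0.979 and 0.778. Within arms it was 0.993 and 0.979 in colon, 0.990 and 0.973 in lung, and 0.807 and 0.990 in oral swab (control and PET). Burkholderia group and Sphingomonas had r of 0.845, 0.804 and 0.948, and Sphingomonas and Leifsonia 0.858, 0.813 and 0.841, in the same order of sites.

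All 9 of these pairs passed by both r and rho, and they were the only ones of 24 that did. Genera of 1 library share its total, which can move their shares together. With a centred log ratio over all genera in place of the share, 10 pairs passed. The patchy genera did not follow the leading ones as closely. In lung the pairs with Pseudomonas had r from -0.097 to 0.328, and none passed. Acinetobacter and the Burkholderia group had a rho of 0.762 (permutation adjusted p = 0.0118) but an r of 0.585 (0.0904). In week 1 stool the 3 leading pairs had r of 0.619 to 0.638, none of which passed by r, and without the 2 farthest libraries r was 0.374, 0.285 and 0.014 and rho 0.661, 0.539 and 0.564. Sphingomonas and Leifsonia passed there by rho alone (0.748, permutation adjusted p = 0.0133).

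The ratio of counts within a library leaves out the library total. Over the 36 colon, lung and oral libraries, Leifsonia had a median of 0.196 counts per count of the leading Burkholderia feature, and all libraries lay between 0.0959 and 0.417. The share of the Burkholderia group spanned 239-fold over the same libraries. On the log2 scale the SD was 2.01 for that share and 0.455 for the Leifsonia ratio. The site medians were 0.190 in colon, 0.202 in lung and 0.223 in oral swab. The Sphingomonas ratio had a median of 0.216, a range of 0.0337 to 1.05 and an SD of 0.969. It varied more than the Leifsonia ratio in colon (SD 0.922 and 0.314) and lung (1.19 and 0.412) but less in oral swab (0.340 and 0.546).

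**Figure D4:**
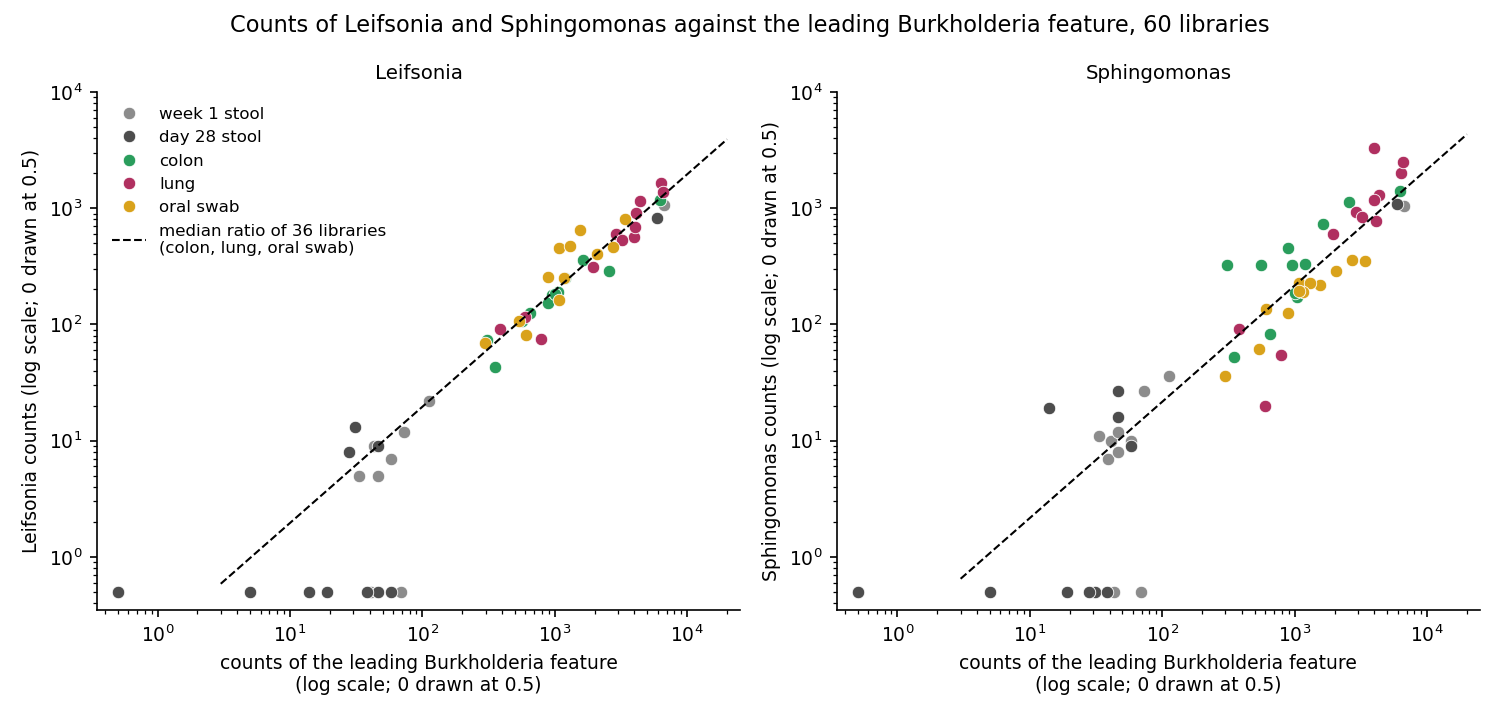
Counts of Leifsonia (left) and Sphingomonas (right) against counts of the leading Burkholderia feature in each of 60 libraries (log scales, a count of 0 drawn at 0.5), coloured by site; the dashed line is the median ratio over 36 colon, lung and oral libraries (0.196 and 0.216). Leifsonia points of colon, lung and oral swab lie between ratios of 0.0959 and 0.417 and Sphingomonas points between 0.0337 and 1.05, while stool libraries with few Burkholderia counts often have 0 counts of either genus.

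The 2 ratios were tested between arms and between sites, 12 tests in all, chosen after the data were seen. The Sphingomonas ratio was higher in colon than in oral swab, with geometric means of 0.309 and 0.150 (difference of 1.04 on the log2 scale, permutation p = 0.00124, adjusted 0.0149). In lung against oral swab it was 0.63 higher (permutation adjusted p = 0.22), and without lung control 5 and 6, which had the lowest ratios of all 36 libraries (0.0703 and 0.0337), it was 1.08 higher (permutation adjusted p = 0.00024). No Leifsonia ratio passed: the lowest adjusted p was 0.188 (permutation), for colon against oral swab and for oral PET (0.192) against oral control (0.288).

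Sphingomonas was also made up of different features by site. Of the counts in its 2 most abundant features, the first held a mean of 66.4% in colon, 38.2% in lung and 11.8% in oral swab. The first was found in 12 colon libraries and 5 oral libraries, and the second in 9 and 12. For the Burkholderia group, by contrast, the leading feature held 99.7% of the genus at all sites together.

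Over all 60 libraries the 2 genera with a share most like that of the Burkholderia group were Leifsonia (Spearman's rho 0.948) and Sphingomonas (0.945), among the genera seen in at least 20 libraries. Collinsella, Escherichia-Shigella and the Eubacterium hallii group, which are gut bacteria, came next with 0.899, 0.898 and 0.898. These values mix sites, and libraries of 1 site share kit and community. Taking the lowest rho of colon, lung and oral swab in its place, the order was Leifsonia (0.874), Sphingomonas (0.846), Acinetobacter (0.699) and the skin genus Cutibacterium (0.566). Akkermansia followed with 0.510. Within a single site, genera outside the members could be as close. In colon rho was 0.930 for Collinsella and 0.909 for Sphingomonas, and in oral swab 0.951 for Mycoplasma and 0.874 for Leifsonia. In lung Leifsonia (0.965) and Sphingomonas (0.846) stood above Asteroleplasma (0.790).

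The arms were compared at each site and time, 6 PET against 6 control libraries, to see whether exposure went with a change of these genera. No member genus passed edgeR's quasi-likelihood test at any site: 0 of 4 in week 1 stool, 0 of 3 in day 28 stool, 0 of 4 in colon, 0 of 8 in lung and 0 of 8 in oral swab. Over all genera tested, 0% were called in week 1 stool, 0% in day 28 stool, 15.6% in colon, 0% in lung and 0% in oral swab. At an unadjusted p below 0.05 the members numbered 3, 2, 0, 3 and 0. An exact permutation test per genus called 0 genera at each site, with 2, 0, 0, 2 and 0 members below 0.05 unadjusted. DESeq2 called 2 member genera, both in lung.

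Of the member families, 0 of 3, 2, 3, 6 and 5 passed in the same order of sites with edgeR, and 2, 1, 0, 1 and 0 had an unadjusted p below 0.05. Among all families 24.6% were called in colon and 0% elsewhere, and DESeq2 called 1 member family, Pseudomonadaceae in lung, beside 2 of 95 families (2.11%). Of single member features, 0 of 6, 4, 7, 17 and 9 passed with edgeR (2.35% of all features in colon, 0% elsewhere), with 4, 2, 1, 4 and 0 below 0.05 unadjusted.

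In colon the Burkholderia group had shares of 0.145%, 3.56%, 0.383%, 0.781%, 0.935% and 0.440% in the 6 control libraries, and of 2.31%, 0.717%, 0.925%, 2.29%, 1.79% and 0.111% in the 6 PET libraries. The arms overlapped over nearly the whole range. The means were 1.04% ± 1.27 and 1.36% ± 0.907, and the log2 change was -0.23 ± 1.10 (SE; edgeR adjusted p = 0.944). Its sign turned with the scaling, to 0.38 on library totals, where the median of all genera moved from 0.57 to 0.94. Sphingomonas was at 0.57 ± 1.17 (edgeR adjusted p = 0.928) and Leifsonia at -0.37 ± 1.22 (0.944).

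In lung the Burkholderia group had 1.23%, 1.33%, 18.1%, 5.40%, 0.747% and 4.11% in control libraries and 5.31%, 13.7%, 5.91%, 3.71%, 20.8% and 3.80% in PET libraries. The 3 lowest libraries were controls, and 1 control library was the second highest. The means were 5.16% ± 6.62 and 8.88% ± 6.94, with a log2 change of 0.89 ± 0.97 (SE; edgeR adjusted p = 0.972). Leifsonia was at 0.60 ± 1.12 and Sphingomonas at 0.65 ± 1.13 (edgeR adjusted p = 0.997 for both).

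In oral swab the Burkholderia group had 0.407%, 0.459%, 0.358%, 0.315%, 0.792% and 0.234% in control libraries and 0.450%, 0.519%, 0.343%, 0.0871%, 2.03% and 0.285% in PET libraries. The control range lay inside the PET range. The log2 change was -0.05 ± 0.43 (SE; edgeR adjusted p = 0.991), and its sign turned on library totals, to 0.53. Leifsonia was at -0.74 ± 0.48 (edgeR adjusted p = 0.892) and Sphingomonas at -0.20 ± 0.46 (0.970).

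In stool the difference between arms rested on 1 high library at each time. At week 1 the Burkholderia group had 0%, 0.00726%, 0.0105%, 0.0102%, 0.0100% and 0.0121% in control libraries and 0.0177%, 0.0127%, 0.0159%, 0.0139%, 0.0183% and 0.616% in PET libraries. All PET libraries lay above all controls, which was so for 0.806% of the genera tested and for this genus only. That separation counts control library 1 as 0%, although its depth allows a share of up to 0.0182%, which is above 4 of the 6 PET libraries. The margin to the other controls was small as well: the lowest PET library had 58 counts and the highest control library 69, at different depths. The log2 change was 3.31 ± 1.205 (SE; edgeR adjusted p = 0.325; exact permutation p = 0.00216, adjusted 0.268). Without PET library 6 it was 0.36 (edgeR adjusted p = 0.960).

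At day 28 the direction was the reverse. The Burkholderia group had 0.980%, 0.00977%, 0.00871%, 0.00695%, 0.00851% and 0% in control libraries, and 0%, 0.0154%, 0.00550%, 0.00310%, 0.00438% and 0.00153% in PET libraries. The log2 change was -5.09 ± 1.91 (SE; edgeR adjusted p = 0.392), and -0.38 (0.965) without control library 1. The exposure effect at day 28 minus that at week 1 was -7.73 ± 2.25 for this genus and -9.82 ± 3.16 for Leifsonia (edgeR adjusted p = 0.0697 for both), with 0% of 147 genera called and 4 members below 0.05 unadjusted. DESeq2 called 0 of 2 members. Without both high libraries it was -1.03 for the Burkholderia group.

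Pseudomonas in lung was the member genus whose arms stood apart. Its shares were 0.0526%, 0.00545%, 0%, 0.0861%, 0.00860% and 0.0830% in control libraries, and 0.201%, 1.27%, 0.587%, 0.582%, 0.313% and 0.496% in PET libraries. The lowest PET library was thus above the highest control, which was so for 2 genera of 233 (0.858%), the other being unclassified Enterobacteriaceae. The means were 0.0393% ± 0.0398 and 0.575% ± 0.374, and the log2 change was 3.66 ± 1.53 (SE; edgeR adjusted p = 0.353). The exact permutation test gave p = 0.00216, the smallest that 6 against 6 allows, and 0.252 adjusted. DESeq2 gave 3.85 ± 0.99 with an adjusted p of 0.0132, and called 2.12% of 189 genera. The call therefore depended on the tool. The counts behind it were small, from 0 to 169 in control and from 50 to 370 in PET libraries, and control library 3 with 0 counts allows a share of up to 0.0124%.

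The Pseudomonas counts in lung were spread over 26 features. Of these, 18 were found in PET libraries only, 3 in control libraries only and 5 in both, and 16 were found in a single library. Among all prokaryote features seen in lung 84.1% were found in 1 arm only and 80.0% in a single library. By arm, 1250 of them were in PET only and 1783 in control only, and of member features 43 and 37. No feature was in more than 4 PET or 2 control libraries, so no single sequence marked the arm. PET libraries held 3 to 9 Pseudomonas features each and control libraries 0 to 5. The PET lung libraries had 10543 to 133219 total counts and the control lung libraries 21912 to 326834, and gut families held 32.1% ± 10.6 of PET and 54.3% ± 19.6 of control lung libraries. The part of depth or of the rest of the community in the Pseudomonas difference was not tested.

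Duganella and Moraxella were each seen in 1 lung arm only, as were 13 of the 233 genera tested in lung (5.58%). Both passed the filter only through the arm that held their counts, so the direction of each was fixed beforehand. Without the filter on low counts, 14 of 24 member genera seen in lung were in 1 arm only, beside 41.5% of all genera seen there. Duganella had 21, 77, 27, 51, 0 and 0 counts in PET libraries and 0 in all control libraries. The pooled PET share was at least 162-fold higher, set against a floor of 3 counts over the pooled control group. That bound does not hold library by library. The floor of control 6 alone was 0.0207%, above the share of PET 1 (0.0171%). Duganella passed with DESeq2 (log2 8.33, adjusted p = 0.0132) but not with edgeR (8.54 ± 2.57, adjusted p = 0.209). Moraxella had 203 counts in 3 control libraries and 0 in all PET libraries, at least 24.5-fold lower in PET against the same kind of floor (edgeR adjusted p = 0.255). Its 5 features were each found in 1 library. Acinetobacter was at 0.95 and Lautropia at 2.32 on the log2 scale, and neither passed.

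**Figure D5:**
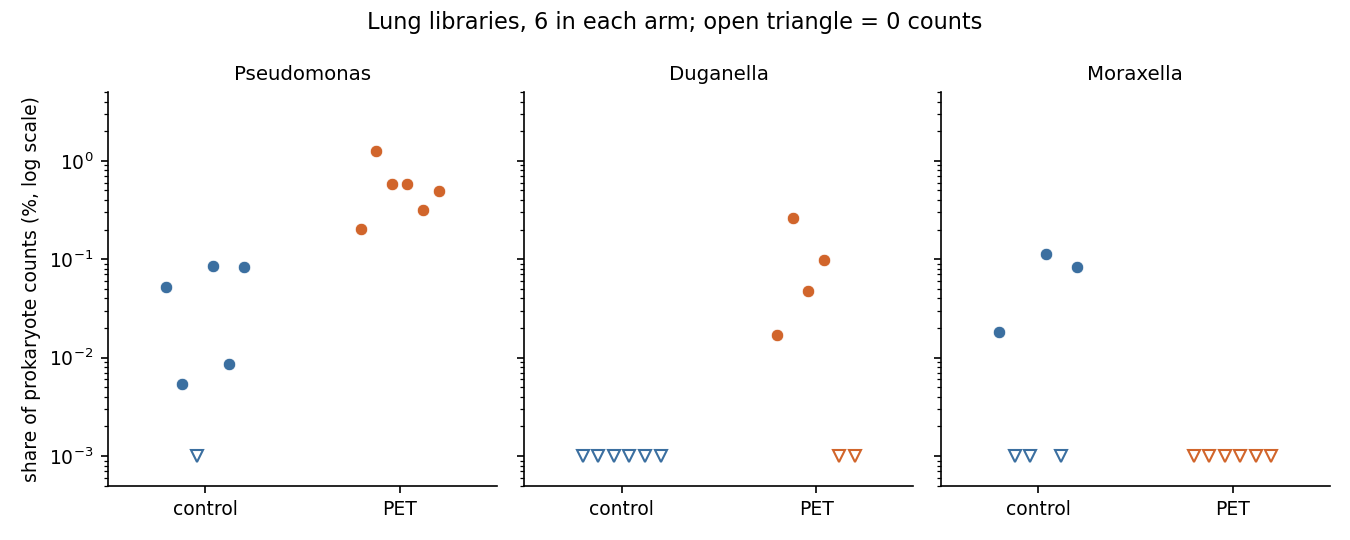
Share of prokaryote counts (percent, log scale) of Pseudomonas, Duganella and Moraxella in the 6 control and 6 PET lung libraries; each point is 1 library and an open triangle is a library with 0 counts. The lowest PET library for Pseudomonas (0.201%) lies above the highest control (0.0861%), Duganella appears in 4 PET libraries only and Moraxella in 3 control libraries only.

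In oral swab the largest member changes did not pass either. Limnobacter was at 3.21 ± 2.00 (log2, SE), with 13, 5, 0, 0, 25 and 0 counts in control libraries and 52, 0, 0, 3, 245 and 0 in PET libraries, so PET library 5 alone held most of them. Novosphingobium was at -3.67 (edgeR adjusted p = 0.865). Of the other reagent-type genera, 0 of 3 in colon, 0 of 7 in lung and 0 of 6 in oral swab passed between the arms with edgeR.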

How the data were processed

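V3-V4 amplicons of the 16S gene were sequenced from 60 mouse samples, per the labels' protocols. The authors deposited a table of counts per feature and library and a taxonomy table with the classifier's confidence as a fraction from 0 to 1. Cutadapt, Bowtie2 and the mouse build GRCm39 stand in the submitters' processing notes, with no role or order. Denoiser, classifier and taxonomy reference: not given in the sources used here.

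From these counts, features assigned to Bacteria or Archaea, chloroplasts and mitochondria left out, were taken as prokaryote, and a share is a feature's counts over the prokaryote counts of its library. Counts were summed by genus or family, kept at a total of at least 10 and a count in at least 3 libraries, and tested with edgeR 4.0.16 (TMM, quasi-likelihood F test, Benjamini-Hochberg over all taxa tested, threshold 0.05). DESeq2 1.42.0 with poscounts size factors and an exact two-sided permutation test per genus were alternatives. Each site and time was fitted alone for the arms, all 48 day 28 libraries together for the sites, and the 24 stool libraries together for time. Correlations used log2 shares with 0.5 counts added and 100000 permutations, two-sided. The scripts were tested on simulated data.

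Other alternatives were library totals, TMMwsp factors, no filter, a filter of 50 counts in 6 libraries, no second label series, and each library left out in turn. Terms for site and arm, the count ratios, single features, arms that do not overlap, the difference of exposure effects in stool and leaving out the high stool libraries were added after seeing the data. Groups came from the labels, and replicate numbers are names in accession order. The members and lists were chosen with earlier results of these data known. The text names the 12 member genera with the highest mean share over the 60 libraries, the 5 highest at each site and time, Leifsonia, the 6 families, members that passed a test, and up to 6 highest and 6 lowest past the threshold between sites. Novosphingobium in the oral arms and genera called by DESeq2 only were named after their values were seen. Of the 8574 features, 7922 were prokaryote.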

Additional observations from a re-analysis of the deposited data

Results flagged for a closer look

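Within each group of 6 libraries, a library was singled out where its gap to the nearest other library took more of the group's range than Dixon's 95% critical value for 6 libraries allows. Of 52 combinations of group and measure examined, 27 met it. The critical value assumes normally distributed values, while the shares and ratios were used untransformed and spread widely. No rate expected by chance can therefore be set beside the 27. The measures are not independent, since the 3 leading genera make up most of the summed share.

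In the summed share the libraries singled out were week 1 stool PET 6 (0.825%) and control 1 (0%), day 28 stool control 1 (1.30%), colon control 2 (5.15%), lung control 3 (29.1%) and oral PET 5 (2.88%). The same high libraries stood out for the Burkholderia group, with 0.616% in week 1 stool PET 6, 0.980% in day 28 stool control 1, 3.56% in colon control 2, 18.1% in lung control 3 and 2.03% in oral PET 5. Day 28 stool PET 2 was added for this genus at 0.0154%.

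For Sphingomonas the values in those 5 high libraries were 0.0972%, 0.182%, 0.806%, 5.34% and 0.267%. For Leifsonia they were 0.0993%, 0.137%, 0.675%, 4.75% and 0.346%, and day 28 stool PET 3, the only PET stool library of day 28 with a Leifsonia count, was added at 0.00157%. Each of these 5 high libraries thus had high values for all of the 3 leading genera, in 3 control and 2 PET groups.

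Among count ratios, Leifsonia per count of the leading Burkholderia feature was low in colon control 1 (0.123). Sphingomonas per count of that feature was high in colon control 6 (0.579), colon PET 6 (1.05) and lung control 1 (0.841). The cause was not tested for any of these libraries.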

How the results depend on the processing

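Counts of member taxa past the threshold stayed within 1.5 times the reported count in 90 of 95 alternatives and in 287 of 288 fits with 1 library left out. The exceptions were the following. In colon against lung 3 member genera became 6 on library totals and 8 with terms for site and arm, and in tissue against stool and oral swab 4 became 8 with those terms. In lung between the arms DESeq2 called 2 member genera and 1 member family in place of 0. In stool over time the count ran from 0 to 2 with 1 library left out, with 2 only without day 28 control 1.

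Log2 changes between arms, those between sites that passed, those of the 3 leading genera between colon and lung and that of unclassified Rhizobiaceae over time kept direction and call in 237 of 266 alternatives and 1079 of 1095 fits with 1 library left out. The changes near 0 turned sign between the arms. In colon the Burkholderia-Caballeronia-Paraburkholderia change was 0.58 with the exact permutation test and 0.38 on library totals, and -0.52 to 0.27 with 1 library left out. The colon Leifsonia change was 0.59, 0.23 and -0.84 to 0.010 in the same order. In oral swab the Burkholderia-Caballeronia-Paraburkholderia change was 0.22 with DESeq2, 0.0087 with the exact permutation test, 0.53 on library totals, 0.072 with no filter and -0.12 to 0.33 with 1 library left out, and Sphingomonas was 0.37 on library totals. None of these passed.

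In colon against lung the Burkholderia-Caballeronia-Paraburkholderia change was 0.92 with DESeq2, 0.082 with TMMwsp, 0.32 with no filter, 0.077 with the strict filter, -2.51 on library totals and -1.01 to 0.27 with 1 library left out. Sphingomonas was 1.11, 0.40, 0.52, 0.25, -2.30 and -1.02 to 0.37 in the same order. Leifsonia was 0.71 with DESeq2, 0.13 with no filter, -2.78 on library totals and -1.32 to 0.022 with 1 library left out. All 3 passed on library totals only, and the positive ends came without lung control 6.

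Without the second label series the Leifsonia ratio in lung (PET minus control) was -0.15, the Sphingomonas ratio was -0.56 there and -0.035 in colon minus lung, and the Sphingomonas ratio in lung against oral swab passed. Depth correlations past both tests numbered 0 under each of 3 alternatives, and genus pairs 9 to 11. Without the most abundant genus the summed share was 0.00251% in week 1 stool control and 0.217% in oral control.

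No paired analysis was possible because replicate numbers follow accession order and the labels do not say which libraries share a mouse. Depth limits the patchy genera most: a lung library of 10543 counts cannot show shares that a stool library of 1083575 can.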
